A study of Homo sapiens with 24 samples.

Results

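The genes described here are 7 genes of the extracellular matrix: tenascin C (TNC), thrombospondin 1 (THBS1), SPARC, fibronectin (FN1), the laminin chain LAMB3, lumican (LUM) and the crosslinking enzyme LOXL2. They were chosen by name, as the probe sets of an expression array annotated to 1 of these symbols alone. The choice was made with earlier results of these data known. This gave 20 of 22215 probe sets (control probes left out) and 7 of the 11963 genes named by a single symbol. FN1 had 6 probe sets, THBS1 5, LOXL2 3, TNC and SPARC 2 each, and LAMB3 and LUM 1 each. Probe sets of 1 gene read the same transcripts and are not replicates of a condition.

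HepaRG is an established human liver cell line whose progenitor-like cells form hepatocyte-like and biliary-like cells when they are kept in DMSO. All 24 samples came from cultures grown for 2 weeks and then kept for 2 more weeks with 2% DMSO, in medium with serum, insulin and hydrocortisone. The hepatocyte-like cells were lifted with mild trypsin and replated sparsely, a step that the labels name as the trigger of reprogramming. RNA was taken at 0, 1, 4 and 8 h and at 12, 16, 24 and 48 h after that step and 3 arrays were made per time. The groups differ in time after replating alone, so time in culture and replating cannot be told apart. The labels number the replicates without saying whether they were separate cultures, so the p-values measure only how far these samples scatter, and that scatter may be technical.

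Matrix glycoproteins surround cells and bind them through integrins and other surface receptors. FN1 is a plasma protein made by hepatocytes and, in another splice form, a fibril of the tissue matrix; LAMB3 is the beta chain of laminin-332, on which epithelial cells are anchored and migrate. TNC, THBS1 and SPARC are matricellular proteins, which modulate adhesion and are low in most resting adult tissue and high in wounds. LUM is a small leucine-rich proteoglycan that binds collagen fibrils, and LOXL2 oxidises lysines of collagen and elastin so that the fibres crosslink.

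The cell label was set against marker genes. Of 9 hepatocyte markers listed, 8 were on the array by name, and all 8 lay above the 40th percentile of every array, with albumin (ALB) at 33000 at 48 h and 69400 at 0 h. Their summed signal lay between 120200 and 134200 at 48 h, against 369500 and 403500 at 0 h. Biliary markers (6 genes) summed to between 18320 and 23340 at 4 h, 16090 and 20460 at 48 h, and 4684 and 5143 at 0 h, mostly through KRT19, while EPCAM was above the 40th percentile on no array. Stellate cell and fibroblast markers (11 genes) summed to between 3488 and 4693 at 48 h, against 1953 and 2313 at 0 h. This sum was mostly ACTA2 and DCN, and PDGFRA and LRAT were above the 40th percentile on no array. Endothelial markers (5 genes) summed to between 101.7 and 173.7 at 48 h and between 334.9 and 512.4 at 0 h. PECAM1 and KDR were above the 40th percentile on all 3 arrays at 0 h, VWF and TEK on 2 of 24 arrays each, and CDH5 on none. Leukocyte markers (4 of 5 on the array by name) summed to between 219 and 312.7 at 48 h and between 481.6 and 635.4 at 0 h. CD14 was above that percentile on 24 of 24 arrays and CD163 on all 3 at 0 h, while PTPRC was on 1 and LYZ on none. The part of other cell types in the results below was not tested, and in bulk RNA fewer cells of a type and less RNA per cell cannot be told apart.

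Values are signals, the linear intensity of a probe set on an array, scaled so that each array has the same trimmed mean. Per array, the median over probe sets averaged 110 ± 4.08 in the 48 h samples and 135 ± 6.1 in the 0 h samples (SD, n = 3). The ACTB 3'/5' ratio, a control that goes up when RNA is degraded, averaged 1.16 ± 0.131 in the 48 h samples, against 3.84 ± 2.68 in the 0 h samples. It was 6.911 on 0 h replicate 2, and 2.035 and 2.565 on replicates 1 and 3 of that time. Without 0 h replicate 2 the log2 change was 4.92 for TNC at 4 h, -1.95 for SPARC at 1 h and -1.61 for FN1 at 48 h, beside 4.59, -1.92 and -1.57 over all arrays.

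The stretches of 250 bases before the annotated starts of 4 of the genes are shown because these genes moved in different ways over the course. TNC and LAMB3 rose and then fell back, THBS1 rose at 1 h and stayed high, and FN1 fell. The sequences are RefSeq's, build GRCh38.p14, read 5′ to 3′ on the gene's strand. Of the 7 genes, 5 matched the table of starts used here, LUM had no match in it and LOXL2 was not looked up. Capitals mark matches, on either strand, to the AP-1 site TGACTCA, the cyclic AMP response element TGACGTCA, the TEAD core GGAATG, the GC box GGGCGG, the TATA box TATAAA or the CArG box.
TNC, chr9:115118158-115118407, minus strand: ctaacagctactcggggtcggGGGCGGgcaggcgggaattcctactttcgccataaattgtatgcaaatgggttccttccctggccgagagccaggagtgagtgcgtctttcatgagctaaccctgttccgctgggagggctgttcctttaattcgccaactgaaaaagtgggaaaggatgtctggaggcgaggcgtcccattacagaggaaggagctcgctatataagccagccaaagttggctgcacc
LAMB3, chr1:209652426-209652675, minus strand: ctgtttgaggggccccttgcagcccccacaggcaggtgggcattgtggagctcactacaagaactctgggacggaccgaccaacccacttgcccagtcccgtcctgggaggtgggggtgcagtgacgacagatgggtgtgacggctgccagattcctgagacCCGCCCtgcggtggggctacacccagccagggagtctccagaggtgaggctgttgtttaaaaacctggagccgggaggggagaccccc
THBS1, chr15:39580829-39581078, plus strand: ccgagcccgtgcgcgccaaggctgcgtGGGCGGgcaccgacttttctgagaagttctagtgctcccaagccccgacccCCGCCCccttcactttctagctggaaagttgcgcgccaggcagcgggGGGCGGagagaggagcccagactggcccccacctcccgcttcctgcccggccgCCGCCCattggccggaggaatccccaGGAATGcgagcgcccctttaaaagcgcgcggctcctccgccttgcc
FN1, chr2:215436069-215436318, minus strand: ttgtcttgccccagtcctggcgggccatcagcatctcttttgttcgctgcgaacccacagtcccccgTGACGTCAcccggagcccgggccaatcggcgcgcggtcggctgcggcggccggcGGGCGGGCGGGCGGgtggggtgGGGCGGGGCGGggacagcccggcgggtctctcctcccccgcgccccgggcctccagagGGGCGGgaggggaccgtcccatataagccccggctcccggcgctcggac

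TNC and LAMB3 each held 1 GC box, and THBS1 held 4 GC boxes and 1 TEAD core, which lay 46 to 41 bases before the start. FN1 held 6 GC boxes, some of them overlapping copies, and 1 cyclic AMP response element, at 183 to 176 bases before the start. SPARC, not shown, held 1 TEAD core and no GC box. Over 35116 windows of the same length in the table, 42.6% held a GC box, 11.9% the TEAD core, 10.7% the TATA box, 4.2% the AP-1 site, 1.65% the cyclic AMP response element and 1.16% the CArG box. A match describes these letters only, and binding was not measured.

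The 7 genes lie on 7 chromosomes. In GRCh38.p14 TNC spans chr9:115019575-115118157, THBS1 chr15:39581079-39599466, FN1 chr2:215360865-215436068, SPARC chr5:151661096-151686915, LUM chr12:91102629-91111494, LAMB3 chr1:209614870-209652425 and LOXL2 chr8:23296897-23404120.

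Each later time was compared with 0 h to see when the replated cells changed these transcripts, and each time with the one before it to see at which step. The fit (limma on log2(signal + 18), over 17122 probe sets) could test 17 of the 20 probe sets. The others, THBS1 201107_s_at, SPARC 212667_at and LOXL2 202997_s_at, were above their array's 40th percentile on 0, 0 and 1 of 24 arrays. A probe set was called higher or lower at a Benjamini-Hochberg adjusted p under 0.05 and a difference of at least 2-fold.

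Of the 17 tested probe sets, 2 were called higher and 2 lower at 1 h, against 1.98% and 0.549% of all tested probe sets. At 4 h 7 were higher and 1 lower, against 7.13% and 6.38%. At 8 h 7 were higher and 1 lower (8.02% and 9.31% of all). At 12 h 7 were higher and 3 lower (8.46% and 9.48%), and at 16 h again 7 and 3 (8.52% and 11.1%). At 24 h 6 were higher and 6 lower (9.26% and 10.8%), and at 48 h 5 were higher and 6 lower (9.23% and 11%). With no filter and all 20 tested, these counts against 0 h were the same. Centring each array on its median moved the split at 24 h to 6 higher and 2 lower, since several FN1 probe sets then fell short of 2-fold. The median log2 change of the 17 was -0.30 at 4 h, 0.24 at 24 h and 0.44 at 48 h, beside -0.15, -0.11 and -0.12 over all tested probe sets. FN1 gave 6 of the 17, and these medians are the values of its dim set FN1 214702_at, so they do not describe the genes. At 4 h the brightest sets of TNC, THBS1, LAMB3 and LUM changed by 4.59, 2.99, 2.65 and 1.46. Those of SPARC, FN1 and LOXL2 changed by -0.58, -0.60 and -1.49.

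**Figure D1:**
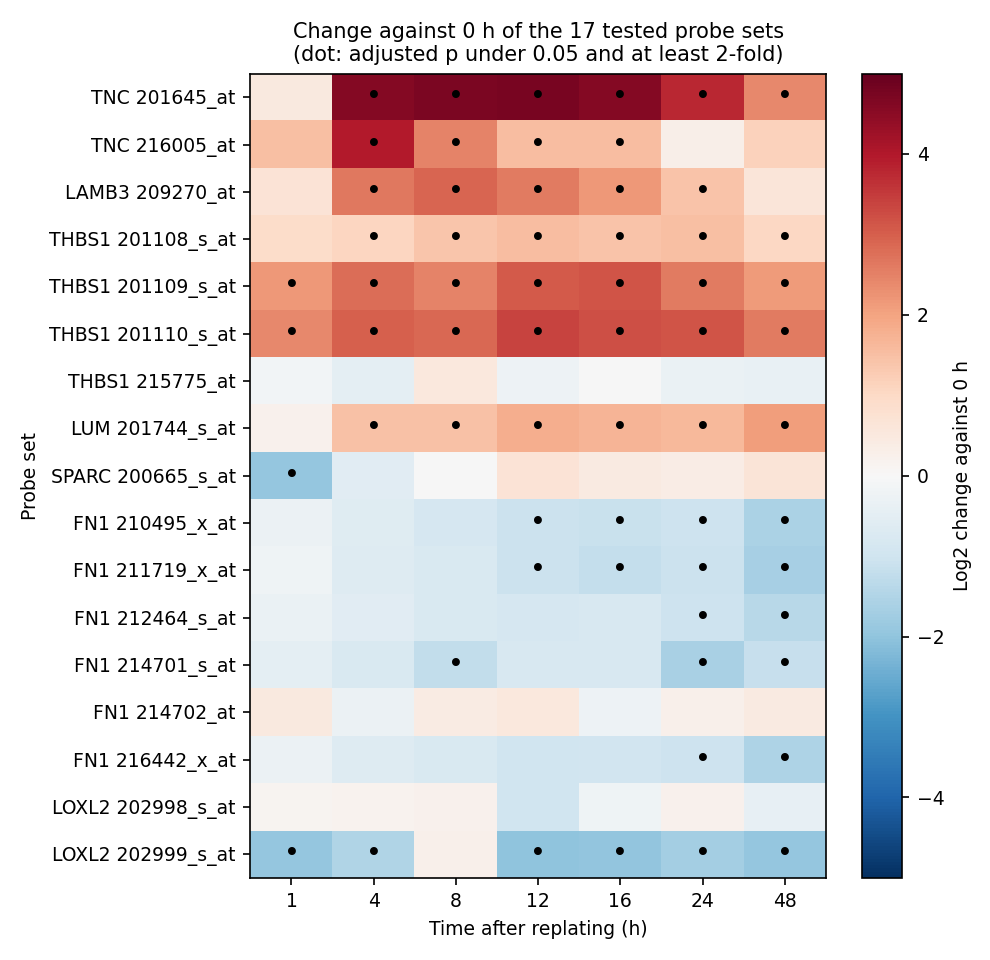
Log2 change against 0 h (colour, red higher and blue lower) of the 17 tested probe sets (rows) at the 7 later times (columns); a dot marks an adjusted p under 0.05 with at least a 2-fold difference. TNC 201645_at, LUM and 3 of the 4 THBS1 probe sets carry a dot at every time from 4 h on and LAMB3 between 4 and 24 h, the 4 bright FN1 probe sets carry one at 24 and 48 h, and SPARC at 1 h alone.

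By gene, through the brightest tested probe set of each, THBS1 was the gene called higher at 1 h, with SPARC and LOXL2 lower. At 4 h TNC, THBS1, LUM and LAMB3 were higher and LOXL2 lower, where 7.53% of all genes were called higher and 7.03% lower. At 24 h the same 4 genes were higher, and FN1 and LOXL2 were lower, where 10.3% of all genes were called higher and 11.1% lower. At 48 h TNC, THBS1 and LUM were higher, and FN1 and LOXL2 lower, where 9.76% of all genes were called higher and 11.6% lower.

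Between neighbouring times, 5 of 17 probe sets were called at 4 h against 1 h, both of TNC and those of LAMB3, LUM and SPARC, all of them higher, where 9.77% of all probe sets were called in either direction. At 8 h against 4 h 1 was called, LOXL2 202999_s_at (higher; 2.55% of all), and at 12 h against 8 h the same LOXL2 probe set (lower; 0.362%). None was called at 16 h against 12 h (0.204% of all; 0 members had an unadjusted limma p under 0.05) or at 24 h against 16 h (1.15%; 4 members had one). At 48 h against 24 h 1 was called, TNC 201645_at (lower; 1.2% of all). At 48 h against 8 h 4 were called, all lower, both of TNC, LAMB3 and LOXL2 202999_s_at, against 11.1% of all in either direction.

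**Figure D2:**
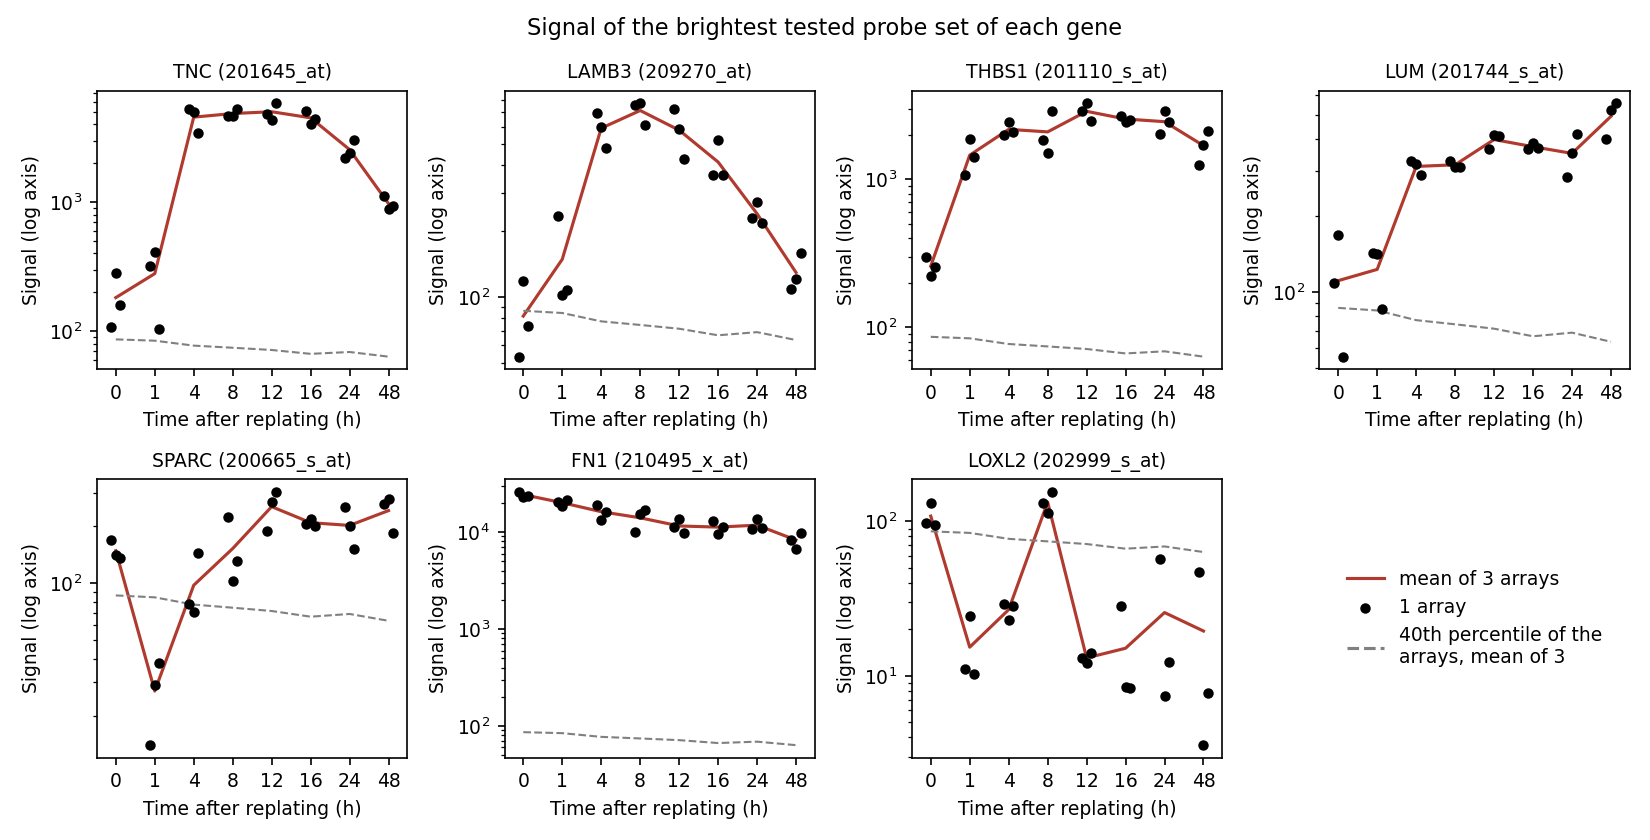
Signal (log axis) of the brightest tested probe set of each of the 7 genes on each of the 24 arrays (points) by hours after replating (evenly spaced), with the mean of 3 arrays (line) and the arrays' 40th percentile (dashed). TNC and LAMB3 were high between 4 and 16 h and lower again at 48 h, while FN1 stayed far above the dashed line throughout and LOXL2 was mostly below it.

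TNC, a large many-armed glycoprotein of wound and developing tissue, showed the largest log2 change of the 7 genes at 4, 8, 12, 16 and 24 h. TNC 201645_at read 107, 280 and 159 at 0 h; 321, 412 and 104 at 1 h; 5238, 5012 and 3435 at 4 h; and 4685, 4652 and 5256 at 8 h. It read 4867, 4349 and 5853 at 12 h; 5114, 4019 and 4388 at 16 h; 2215, 2411 and 3041 at 24 h; and 1108, 884 and 931 at 48 h. The arrays at 0 h and 1 h overlapped, those between 4 h and 16 h formed a plateau with overlapping ranges, and those at 24 h and 48 h each stood apart below it and above 1 h.

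TNC averaged 4562 ± 983 at 4 h and 182 ± 88.8 at 0 h (SD, n = 3), a log2 change of 4.59 ± 0.28 (SE; 24-fold; adjusted p = 2.3e-14, limma). At 1 h the change was 0.48 ± 0.28 (adjusted p = 0.44), so the rise was called between 1 h and 4 h (4.11 ± 0.28 at 4 h against 1 h, adjusted p = 1e-12). It then fell by 2.30 ± 0.28 on the log2 scale at 48 h against 8 h (adjusted p = 1.2e-07). At 48 h it still stood 2.40 ± 0.28 above 0 h (5.27-fold; adjusted p = 2.3e-08). The mean at 48 h was 19.4% of the highest mean, that of 12 h.

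The dim probe set TNC 216005_at had a shorter course. It read 6.28, 4.66 and 8.42 at 0 h; 40, 57.8 and 59.4 at 1 h; 538, 248 and 348 at 4 h; 81.3, 88.1 and 231 at 8 h; and between 10.6 and 104 later. It rose at 4 h (3.95 ± 0.50, adjusted p = 1.6e-07) and was no longer called at 24 h (0.31 ± 0.50, adjusted p = 0.68). At 1 h its arrays all lay above those at 0 h, unlike those of the brighter set, but the change was not called (1.52 ± 0.50, adjusted p = 0.087, limma). The TNC probe sets were therefore both called higher at 4 h and differed in how long that call lasted. Only 9 of 24 arrays read the dim one above their 40th percentile. These included all arrays at 4 h and 8 h and none at 0 h or 1 h. The tests of its rise are therefore not independent of the filter that let it be tested.

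LAMB3, which pairs with other chains to form the laminin that anchors epithelial cells, rose with TNC and was near its 0 h level again by 48 h. LAMB3 209270_at read 53.2, 118 and 73.9 at 0 h; 236, 102 and 108 at 1 h; 698, 598 and 482 at 4 h; and 759, 772 and 612 at 8 h. It read 725, 588 and 428 at 12 h; 361, 521 and 363 at 16 h; 231, 272 and 218 at 24 h; and 109, 120 and 159 at 48 h. The arrays between 4 h and 24 h all lay above those at 0 h, and the ranges at 48 h and 0 h overlapped.

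LAMB3 averaged 714 ± 88.6 at 8 h and 81.7 ± 33 at 0 h, a log2 change of 2.92 ± 0.28 (7.57-fold; adjusted p = 4.4e-10, limma). The change was 1.42 ± 0.28 at 24 h (adjusted p = 1.1e-04) and 0.60 ± 0.28 at 48 h (95% interval 0.03 to 1.17; adjusted p = 0.094). At 48 h it lay 2.32 ± 0.28 below 8 h on the log2 scale (log2 change -2.32; adjusted p = 7.4e-08), with 18.1% of its highest mean left. Across the 24 arrays the log2 values of TNC and LAMB3 had a Pearson r of 0.887, a description of arrays that share 8 times.

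The summed biliary markers, mostly KRT19, lay above their 0 h range at 4 h and 48 h, as given above. KRT19 averaged 17500 at 4 h, 16100 at 48 h and 3360 at 0 h. SPP1 (1980, 1760 and 969) and the dimmer KRT7 (136, 108 and 36.7) were also above 0 h at both times. SOX9 averaged 1040 at 4 h, 379 at 48 h and 517 at 0 h. CFTR and EPCAM were above the 40th percentile on 2 and 0 of 24 arrays. Whether cells of that kind carried the LAMB3 or TNC signal was not tested.

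THBS1, a trimeric matricellular protein that activates latent TGF-beta and restrains vessel growth, was the earliest riser. THBS1 201110_s_at read 300.2, 221 and 257 at 0 h; 1072, 1878 and 1420 at 1 h; 2003, 2443 and 2082 at 4 h; and 1848, 1514 and 2915 at 8 h. It read 2903, 3270 and 2470 at 12 h; 2695, 2439 and 2535 at 16 h; 2015, 2889 and 2454 at 24 h; and 1250, 1700 and 2119 at 48 h. All arrays from 1 h on lay above all arrays at 0 h, and in the order of its means no other neighbouring times stood apart.

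THBS1 averaged 1457 ± 404 at 1 h and 259 ± 39.7 at 0 h, a log2 change of 2.38 ± 0.20 (5.22-fold; adjusted p = 1.5e-10, limma). The change was 3.39 ± 0.20 at 12 h, its highest mean (adjusted p = 1.1e-14), and 2.60 ± 0.20 at 48 h (6.06-fold; adjusted p = 3.1e-12). No step after 1 h was called, and the mean at 48 h was 58.6% of that at 12 h. THBS1 201109_s_at rose by like amounts, 2.17 ± 0.29 at 1 h and 2.12 ± 0.29 at 48 h.

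THBS1 201108_s_at moved less, with 0.92 ± 0.27 at 1 h (short of 2-fold) and 1.54 ± 0.27 at 12 h (adjusted p = 2.9e-05). THBS1 215775_at, which was above the 40th percentile on 7 of 24 arrays, was called at no time, with log2 changes between -0.50 and 0.51. The 3 THBS1 probe sets that rose had pairwise r of 0.809 to 0.911 over the 24 arrays.

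**Figure D3:**
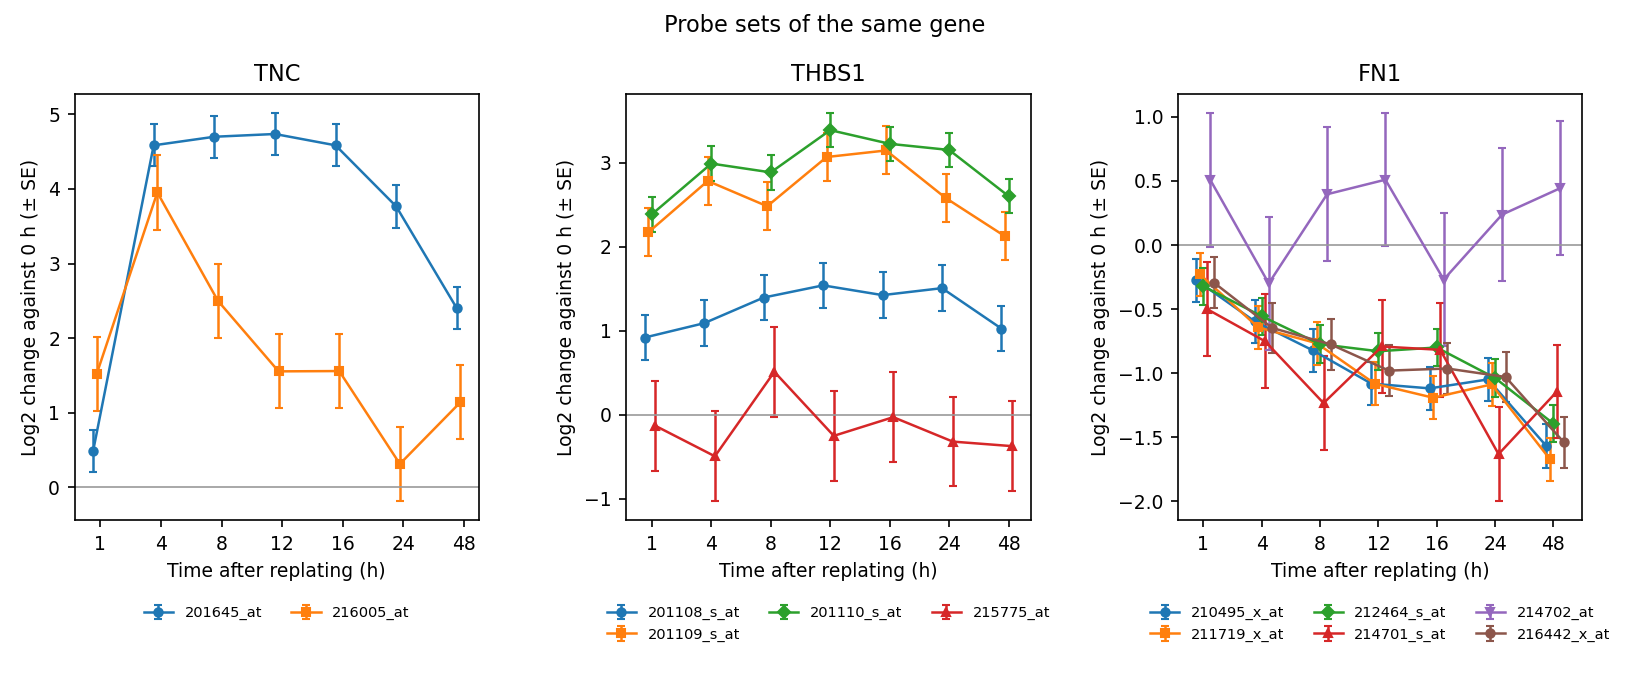
Log2 change against 0 h (± SE) by hours after replating for each tested probe set of TNC, THBS1 and FN1. The dim sets TNC 216005_at, THBS1 215775_at and FN1 214702_at departed from the brighter ones of the same gene.

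SPARC, a collagen-binding matricellular protein, showed a brief dip at 1 h by its tested probe set. SPARC 200665_s_at read 168, 141 and 136 at 0 h; 14, 29 and 38.1 at 1 h; 77.9, 70.6 and 145 at 4 h; and 224, 103 and 131 at 8 h. It read 188, 269 and 304 at 12 h; 206, 220 and 201 at 16 h; 254, 201 and 151 at 24 h; and 263, 278 and 185 at 48 h. The 3 arrays at 1 h lay below every other array of the course. The untested SPARC 212667_at, above the 40th percentile on 0 of 24 arrays, averaged 31.4, 11.8, 9.09, 8.66, 12.7, 17.1, 41.9 and 37.4 in order of time. It was also lower at 1 h but did not show the return by 4 h, and the r between these sets was 0.293.

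SPARC averaged 27 ± 12.2 at 1 h and 148 ± 17.4 at 0 h, a log2 change of -1.92 ± 0.33 (adjusted p = 1.4e-04, limma). At 4 h it rose by 1.34 ± 0.33 against 1 h (adjusted p = 0.0027) and its difference from 0 h was no longer called (-0.58 ± 0.33, adjusted p = 0.21). The arrays at 12, 16 and 48 h all lay above those at 0 h, but the changes of 0.69, 0.45 and 0.63 (SE 0.33 each) were not called (adjusted p = 0.11, 0.31 and 0.14). The signals at 1 h are below the arrays' 40th percentile (84.3 ± 5.74 at 1 h), where the pseudocount shrinks a change: with no pseudocount the SPARC change at 1 h was -2.57.

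FN1 had the brightest signals of the 7 genes and was the structural member that fell. FN1 210495_x_at read 26044, 22971 and 23742 at 0 h; 20148, 18753 and 21255 at 1 h; 19132, 13408 and 16030 at 4 h; and 10042, 15304 and 16679 at 8 h. It read 11377, 13506 and 9736 at 12 h; 12887, 9600 and 11202 at 16 h; 10851, 13486 and 10949 at 24 h; and 8308, 6633 and 9843 at 48 h. The arrays at every later time lay below all 3 at 0 h, and the ranges of all later neighbours in the order of means overlapped.

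FN1 averaged 8261 ± 1605 at 48 h and 24250 ± 1599 at 0 h, a log2 change of -1.57 ± 0.17 (adjusted p = 3.8e-09, limma). It had passed 2-fold at 12 h (-1.08 ± 0.17, adjusted p = 4.7e-06), while the smaller changes of -0.60 at 4 h and -0.82 at 8 h (SE 0.17 each) passed the p-value alone (adjusted p = 0.0077 and 2.4e-04). The calls at 12, 16 and 24 h were close to 2-fold, and with each array centred on its median the changes were -0.88, -0.84 and -0.835, short of it; at 48 h it was -1.31 and kept its call. The change at 12 h was also short of 2-fold without 12 h replicate 3 (-0.97), and that at 24 h without 0 h replicate 1 (-0.996) or without 24 h replicate 1 (-0.994).

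A name ending in _x_at marks probes that may also bind similar transcripts, as in 3 of the FN1 sets. The set without that mark among the 4 bright ones, FN1 212464_s_at, read 5716, 5636 and 7620 at 48 h, against 16471, 17203 and 15793 at 0 h. Its log2 change was -1.04 ± 0.15 at 24 h (adjusted p = 6.1e-07) and -1.39 ± 0.15 at 48 h (adjusted p = 1.9e-09). The changes of FN1 211719_x_at and FN1 216442_x_at at 48 h were -1.67 and -1.54. The 4 bright sets had pairwise r of 0.913 to 0.969 over the 24 arrays, a description of sets that read the same gene.

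The dim sets of FN1 were less regular. FN1 214701_s_at was called lower at 8, 24 and 48 h (-1.14 ± 0.37 at 48 h, adjusted p = 0.014), with the call at 8 h lost without 0 h replicate 2 or 8 h replicate 2. FN1 214702_at was called at no time (changes between -0.30 and 0.51). The fall of FN1 went with that of the hepatocyte marker sum given above, and their relation was not tested.

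LUM, the collagen-binding proteoglycan, rose by 4 h and had its highest mean at the last time. LUM 201744_s_at read 108, 168 and 55.4 at 0 h; 142, 141 and 85.2 at 1 h; 328, 321 and 289 at 4 h; and 330, 311 and 312 at 8 h. It read 367, 417 and 414 at 12 h; 368, 386 and 370 at 16 h; 284, 352 and 421 at 24 h; and 400.3, 525 and 557 at 48 h. Every array from 4 h on lay above every array at 0 h and 1 h, and the later times overlapped in the order of their means.

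LUM averaged 313 ± 20.8 at 4 h and 111 ± 56.5 at 0 h, a log2 change of 1.46 ± 0.26 (adjusted p = 4.8e-05, limma). At 48 h the average was 494 ± 82.6, a change of 2.08 ± 0.26 against 0 h (4.23-fold; adjusted p = 6.9e-08), and 0.60 ± 0.26 against 8 h, which was not called (adjusted p = 0.1). The rise was called at 4 h against 1 h (1.26 ± 0.26, adjusted p = 4.3e-04). The summed stellate cell and fibroblast markers lay between 1882 and 2299 at 4 h, 3488 and 4693 at 48 h, and 1953 and 2313 at 0 h. Within that sum ACTA2 averaged 799 at 4 h, 2610 at 48 h and 1160 at 0 h. DCN, a relative of LUM, averaged 766 at 4 h, 1000 at 48 h and 380 at 0 h. Its log2 change at 4 h was 0.98 ± 0.19 (adjusted p = 1.2e-04, limma), just short of 2-fold. The part of these markers' cells in the LUM rise was not tested. Across the arrays LUM and FN1 had an r of -0.830, which describes 2 opposite courses over shared times.

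LOXL2, the copper-dependent amine oxidase, was close to the low end of the arrays and gave the least certain values. LOXL2 202999_s_at read 98.5, 132 and 94.7 at 0 h; 11.1, 24.6 and 10.4 at 1 h; 29.4, 23 and 28.2 at 4 h; and 132, 113 and 156 at 8 h. It read 13.1, 12.1 and 14.1 at 12 h; 28.4, 8.54 and 8.4 at 16 h; 57.5, 7.37 and 12.3 at 24 h; and 47.3, 3.56 and 7.71 at 48 h. The arrays at 0 h and 8 h stood above all others, and were the 6 of 24 that passed their 40th percentile. The set was tested only through these times where it was high, so the tests of falls from 0 h and 8 h are not independent of that filter.

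LOXL2 202999_s_at was lower at 12 h than at 0 h by 2.01 ± 0.53 on the log2 scale (log2 change -2.01; adjusted p = 0.0032, limma) and at 48 h by 1.92 ± 0.53 (log2 change -1.92; adjusted p = 0.0046). At 8 h the change was 0.27 ± 0.53 (adjusted p = 0.76), with a called rise at 8 h against 4 h (1.75, adjusted p = 0.035) and a called fall at 12 h against 8 h (-2.28, adjusted p = 0.028). The fall at 4 h (-1.49 ± 0.53, adjusted p = 0.035) and that at 12 h against 8 h were not called when any 1 array of the times compared was left out. The rise at 8 h against 4 h was not called when any 4 h array or 8 h replicate 1 or 2 was left out. The fall at 1 h (-1.94 ± 0.53, adjusted p = 0.028) was not called when any 0 h array or 1 h replicate 1 or 3 was left out (adjusted p between 0.061 and 0.12), nor that at 24 h without 24 h replicate 2 or 3. The falls at 12, 16 and 48 h kept their call whichever single array was left out.

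The other probe sets of LOXL2 did not show this course. LOXL2 202998_s_at was called at no time (changes between -0.997 and 0.23) and the untested 202997_s_at read between 3.5 and 77.6. The pairwise r between the LOXL2 probe sets was 0.002 to 0.210, so the fall rests on 1 dim probe set.

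Neighbours of these genes in the matrix were taken from 5 lists, each gene by its brightest tested probe set, and 79 of the 94 genes on the array by name were tested (SDC1 and SDC4 stand in both proteoglycans and receptors). Together 12 were called higher and 5 lower at 4 h (7.53% and 7.03% of all genes), 17 and 9 at 24 h (10.3% and 11.1%), and 14 and 9 at 48 h (9.76% and 11.6%). The counts by list below are to be read beside the same shares. Their median log2 change was 0.09, 0.25 and 0.06 at these times, beside -0.16, -0.09 and -0.12 over all genes. With arrays centred on their median the counts were 19 and 5 at 4 h, 23 and 9 at 24 h, and 18 and 7 at 48 h.

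**Figure D4:**
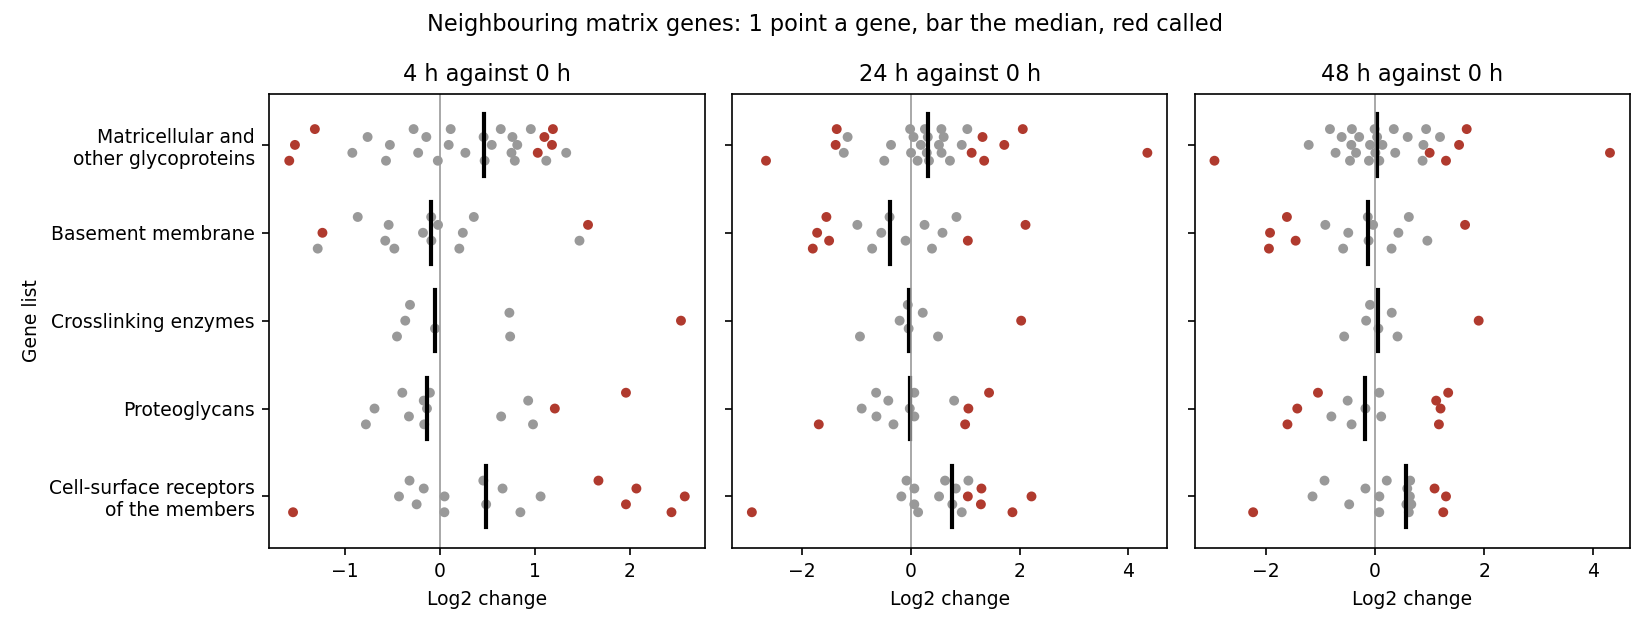
Log2 change against 0 h of the tested genes of 5 lists (1 point a gene, red where called, bar the list median) at 4, 24 and 48 h. The receptor list had medians of 0.49, 0.77 and 0.57, and POSTN is the point near 4.3 at 24 and 48 h.

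Among matricellular and other glycoproteins, 4 of 29 tested genes were higher and 3 lower at 4 h, 6 and 3 at 24 h, and 5 and 1 at 48 h. POSTN (periostin), a matricellular protein of healing tissue that binds TNC and FN1, averaged 3880 ± 231 at 24 h and 176 ± 44.2 at 0 h (log2 change 4.35 ± 0.17, adjusted p = 1.5e-19, limma). At 4 h, when TNC was already called, the POSTN change was 0.76 ± 0.17, short of 2-fold. SPOCK1, a SPARC-related proteoglycan, rose at 24 h (2.06 ± 0.34, adjusted p = 9.2e-06), while SPARCL1, a relative of SPARC, fell (-2.66 ± 0.40, adjusted p = 2.4e-06; 47.5 ± 12.8 at 24 h and 396 ± 80.3 at 0 h).

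Of 15 basement membrane genes tested, 1 was higher and 1 lower at 4 h, 2 and 4 at 24 h, and 1 and 4 at 48 h. The counts at 4 h were near the shares of all genes (7.53% higher and 7.03% lower). The perlecan gene HSPG2 rose at 24 h (2.11 ± 0.57, adjusted p = 0.0037, limma). LAMA1, another laminin chain, and COL18A1, the source of endostatin, fell (-1.80 ± 0.59, adjusted p = 0.016, and -1.72 ± 0.20, adjusted p = 1.2e-08). HSPG2 and LAMA1 were dim. The arrays on which they passed the filter were not counted, so their tests may not be independent of it. HSPG2 averaged 169 ± 16.1 at 24 h and 38.2 ± 51.5 at 0 h, and LAMA1 17 ± 16.8 at 24 h and 96.7 ± 18.8 at 0 h. Those called at 4 h, named after their values were seen, were COL4A1 (1.56 ± 0.16, higher) and LAMB1, a beta chain like LAMB3 (-1.24 ± 0.17, lower).

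Crosslinking enzymes had 1 called gene of 7 at each of the 3 times, the lysyl hydroxylase PLOD2, which was higher (2.54 at 4 h, 2.03 at 24 h and 1.90 at 48 h, SE 0.17 each). It averaged 5129 ± 342 at 24 h and 1247 ± 162 at 0 h (adjusted p = 8.1e-12, limma). The other 6 tested genes of that list were not called at these times.

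Among 13 proteoglycans, 2 were higher and 0 lower at 4 h, 3 and 1 at 24 h, and 4 and 3 at 48 h. DCN (decorin), of the same leucine-rich family as LUM and also 1 of the fibroblast markers, rose at 24 h (1.44 ± 0.19, adjusted p = 1.5e-07; its probe set is an _x_at set). The glypican GPC1 rose (1.06 ± 0.14, adjusted p = 3.5e-07) and the syndecan SDC2 fell (-1.69 ± 0.16, adjusted p = 1.7e-10).

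Receptors of the 7 genes had 5 of 17 higher and 1 lower at both 4 h and 24 h, and 3 and 1 at 48 h. At 24 h CD44, a hyaluronan receptor, averaged 3838 ± 476, against 816 ± 162 at 0 h (2.22 ± 0.16, adjusted p = 4.2e-13, limma). CD36, a receptor of THBS1, rose (1.87 ± 0.56, adjusted p = 0.009) and LRP1, which clears THBS1 and other ligands, fell (-2.92 ± 0.52, adjusted p = 3.2e-05; 14.1 ± 7.64 at 24 h and 225 ± 54.9 at 0 h). CD36 was dim, at 96 ± 63 at 24 h and 10.6 ± 7.87 at 0 h, and at 48 h it averaged 12.5 and was not called. LRP1 averaged 65.6 at 4 h and 38 at 48 h. The arrays on which CD36 and LRP1 passed the filter were not counted, so their tests may not be independent of it. The 5 called higher at 4 h, named after their values were seen, were CD44, CD36, SDC4 (1.96 ± 0.15) and the integrin chains ITGA2 (2.44 ± 0.35) and ITGA5 (2.07 ± 0.21), ITGA5 being the alpha chain of the main fibronectin receptor. ITGA2 and ITGA5 were not among the receptors called at 24 h, when ITGA3, ITGAV and ITGB5, also named after their values were seen, were higher (1.30, 1.29 and 1.05). ITGA5 at 24 h (0.94 ± 0.21) and ITGAV at 4 h (0.85 ± 0.18) were just short of 2-fold and passed the p-value alone (adjusted p = 5.7e-04 and 3.6e-04, limma). ITGA2 at 24 h (0.52) and ITGA3 and ITGB5 at 4 h (-0.25 and 0.05) passed neither threshold.

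For each member, the 3 genes with the highest Pearson r of log2 values over the 24 arrays were named. These arrays share 8 times and 1 course, so r describes likeness of time courses and nothing more. For TNC they were NXT1, CD44 and ANXA5 (r of 0.975, 0.971 and 0.966), and for LAMB3 TMEM158, MMP3 and MT1H (0.959, 0.942 and 0.940, MT1H by an _x_at set). MMP3 (stromelysin 1), a protease that cleaves TNC, FN1 and other matrix proteins, had mean signals of 165, 414, 8620, 9100, 6660, 4490, 2080 and 209 in order of time. CD44 had means of 816, 655, 4940, 6470, 6130, 4560, 3840 and 2030.

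For THBS1 they were PHLDA2, ANXA1 and FHL2 (0.925, 0.909 and 0.904), with PHLDA2 already at 2610 at 1 h, against 394 at 0 h. For LUM they were CAV1, GPRC5A and MAP7D1 (0.933, 0.932 and 0.928); CAV1, which coats caveolae, had means of 16000 at 48 h and 2660 at 0 h. For SPARC they were ITGA3, METTL8 and MYOF (0.886, 0.878 and 0.873). ITGA3, an integrin chain that binds laminin-332, shared the dip, with means of 67.6 at 1 h and 239 at 0 h.

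For FN1 they were ITIH1, APOB and C5 (0.938, 0.922 and 0.920), all plasma proteins that hepatocytes secrete. APOB, the protein of very low density lipoprotein, had mean signals of 26100, 18500, 6800, 4200, 3030, 2370, 1330 and 999 in order of time. For LOXL2 the highest values were 0.701 (SOX2), 0.684 (NBPF1) and 0.680 (IFIT2), lower than for any other member.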

How the data were processed

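Total RNA of 24 HepaRG samples had been measured on a 1-colour Affymetrix array of 22283 probe sets (68 controls), with biotinylated cRNA made from 100 ng of RNA by a 3' in vitro transcription kit, per the labels' protocols. The deposited values are linear intensity signals, 1 per probe set and array, made by the authors with MAS5, per the submitters' processing notes. Neither its version nor its scaling target is stated in those notes. The trimmed mean was 500 on the arrays of every time, so arrays had been scaled to 1 level. Scanner images and present or absent calls were not used, and the number of arrays limits the precision.

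Groups are the labelled times. Signals entered as log2(signal + 18), 18 being the 20th percentile of all signals, with no further normalization. Fold changes are on that scale and understate the change of dim probe sets. Probe sets read above an array's own 40th percentile by 3 or more of the 24 arrays were tested. Gene names came from the array's annotation table, which gives 1 symbol for 19065 probe sets, several for 1043 and none for 2107; none was named from several. Of these, 19059 could be checked by gene identifier against current names, and 0 symbols differed.

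The model over all 24 arrays used limma 3.58.1 under R 4.3.3 (lmFit on group means, contrasts, eBayes with trend, 16 residual degrees of freedom), two-sided, with Benjamini-Hochberg adjustment over the 17122 tested probe sets of a comparison, also for genes represented by their brightest tested probe set (9966 genes). The fit was tested on simulated data. Plots used matplotlib 3.10.9 and Python 3.11.15. The genes, lists, named-gene rule and tests were chosen with earlier results of these data known. The rule named all 7 genes, up to 3 genes per list with the largest change among those called at 24 h with groups that do not overlap, and for each of the 7 genes the 3 most correlated genes. The alternatives tried were log2 without a pseudocount, one of 73.8 (the 40th percentile of all signals), quantile normalization, median centring, no filter, a stricter filter (60th percentile), 1 probe set per gene, only the times compared, a replicate block, no trend, and leaving out each array.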

Additional observations from a re-analysis of the deposited data

How the results depend on the processing

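No called change of a member gene turned its sign under any alternative run. Of the uncalled ones, LUM at 1 h (0.20) was -0.154 without 0 h replicate 3, and SPARC at 8 h (-0.02) was above 0 with quantile normalization (0.135), median centring (0.149) and without 0 h replicate 1 or 8 h replicate 2 or 3. LAMB3, LUM, SPARC and THBS1 kept their side of the threshold in 112 of 112 combinations of time and alternative each, TNC in 111 (without 1 h replicate 3 its change at 1 h was 1.03 and called), FN1 in 106 and LOXL2 in 84 of 105. The members lower at 1 h, 2 in all, were 1 with no pseudocount, the stricter filter or only the times compared, and 1 to 2 when single arrays were left out. The 1 lower at 4 h was 0 with either other pseudocount, quantile normalization, median centring or the stricter filter, and 0 whichever single array was left out. The 1 lower at 8 h was 0 with the larger pseudocount and 0 to 1 without single arrays. Median centring gave 1 lower at 12 h, 1 at 16 h and 2 at 24 h, in place of 3, 3 and 6; without single arrays these were 2 to 4, 3 to 5 (5 without 16 h replicate 1) and 3 to 6 (3 without 24 h replicate 1). Median centring placed the median log2 change of all probe sets at 0.14 at 48 h, where it was -0.12. At 4 h the list genes called higher were 7 with the larger pseudocount and 19 with median centring, and those lower were 3 to 5 without single arrays (3 without 0 h replicate 2 or 3). Of the steps, 4 h against 1 h had 3 calls with the larger pseudocount. For 8 h against 4 h there were 0 with no pseudocount or the stricter filter, 2 with the larger pseudocount or only the times compared, and 0 to 1 without single arrays. For 12 h against 8 h there were 0 with no pseudocount, with the stricter filter and without any single array. For 48 h against 8 h there were 2 with the stricter filter, which leaves dim probe sets out. Signal over background limits the dim probe sets: both tested sets of LOXL2, THBS1 215775_at, FN1 214702_at and TNC 216005_at passed the 40th percentile on 9 or fewer of 24 arrays.

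No shared effect of a replicate number was seen. Of 84 pairs of arrays with 1 number at different times, 0 had deviations from their time means that correlated over 0.1 (range -0.055 to 0.068). Whether arrays of 1 number came from 1 culture cannot be told from this. With the replicate block, the members called at 48 h against 8 h were 3 in place of 4, and no other count of member calls changed.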
